A study of Mus musculus with 6 samples.

Results

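The collagen cross-linking enzymes are 9 genes that encode the lysyl oxidases (*Lox*, *Loxl1*, *Loxl2*, *Loxl3* and *Loxl4*), the lysyl hydroxylases (*Plod1*, *Plod2* and *Plod3*) and transglutaminase 2 (*Tgm2*). They were chosen by gene symbol, and 8 of the 9 had a probe set among the 22206 tested. *Plod3* had no probe set named for it and was not analysed here. The symbols of 7 genes came from the array's annotation. The *Loxl2* probe set was named only in the study's supplementary list of genes reported as up- or downregulated on these same arrays. *Loxl2* could thus be measured only because the study had listed it as changed. Its difference below is not independent of that result, and *Plod3* had no such route. The list pairs the probe set with *Mir6950*, a microRNA gene that lies inside *Loxl2*. Signal from the microRNA transcript and from *Loxl2* cannot be told apart on this probe set.

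RNA from the hearts of 3 *Col1a2*-/- and 3 *Col1a2*+/- mice, aged 2 months, was hybridized to Clariom S Mouse arrays of Affymetrix, each heart to its own array. All mice were kept on the C57/BL6 background, and both genotypes carried the same germline knockout-first allele of *Col1a2*, on both chromosomes or on 1. The controls thus had a single intact copy of *Col1a2*, and no wild-type heart is on these arrays. The allele acts in every cell of the mouse from conception on, and it holds an inserted cassette, whose effect on neighbouring genes was not tested. The labels give whole heart and the methods whole ventricles, and the sex of each animal is not in the labels. Hearts are named by the animal numbers in the labels, which fall into a lower-numbered series (2767, 2769 and 2770) and a higher-numbered series (3200, 3201 and 3294).

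Fibrillar collagens gain their strength from covalent bonds between neighbouring molecules. Lysyl hydroxylases act first, inside the endoplasmic reticulum, where they add hydroxyl groups to lysines of the newly made chains. Lysyl oxidases are secreted copper enzymes that turn lysines and hydroxylysines of collagen, and lysines of elastin, into aldehydes, and these aldehydes then react with each other to form the cross-links. Transglutaminase 2 forms another kind of bond, between glutamine and lysine side chains, and acts on many matrix proteins such as fibronectin. In the heart these enzymes are made largely by fibroblasts and vascular cells, and collagen cross-linking is known for its part in the stiffness of the myocardium.

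The deleted gene was checked first. *Col1a2* had a log2 signal of 9.47, 9.06 and 9.18 in control hearts 2769, 3201 and 3294, and it was 6.86, 6.84 and 6.48 in *Col1a2*-/- hearts 2767, 2770 and 3200. It was the only probe set with an adjusted p under 0.05 from limma (adjusted p = 0.00626), which makes 0.0045% of all probe sets tested. The adjusted p was 0.0948 without heart 3294 and 0.0562 without heart 2770. The log2 difference was -2.54 and -2.56 in these smaller fits, beside -2.51 with all hearts. Array medians ran from 6.64 to 6.67 on the log2 scale. Cardiomyocyte markers had a mean log2 signal of 18.01 to 18.10 over 7 genes, far above 5.97 in every heart, the limit for dim signals used here. Below this limit lay 95% of the probe sets of olfactory, vomeronasal and taste receptors. One control heart stood apart. *Col1a2*+/- heart 3294 had the highest signal of *Myl7*, an atrial myosin light chain, with 13.47 against 8.07 to 12.08 in the others. The atrial growth factor gene *Bmp10* had 13.89 there and 3.53 to 5.35 elsewhere, and the Y-linked gene *Uty* had 2.65 there and 11.58 to 11.90 elsewhere. Read by *Uty*, heart 3294 was female and the others male, and the part of sex in the differences was not tested. Of 4 fat genes, *Ucp1* had 8.33 in heart 3294 and 3.60 to 4.30 elsewhere, and *Adipoq* had 7.78 there and 5.14 to 5.99 elsewhere. The others did not set it apart. *Cidea* had 9.65 there and 9.30 to 9.75 elsewhere, and *Plin1* had 5.13 there and 4.83 to 5.33 elsewhere.

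Among the 8 cross-linking enzymes, *Loxl1* and *Loxl2* were higher in *Col1a2*-/- hearts at an unadjusted p under 0.05 by limma, 0 were lower and 6 did not pass. At the same limit 5.45% of all probe sets passed, of which those higher made 2.67% and those lower 2.79% of all. *Loxl2* could be counted only because the study had listed it as changed, so its call cannot be set against these shares as a like count. None of the 8 passed an adjusted p under 0.05. The mean of 7 of the 8 was higher in *Col1a2*-/- hearts, beside 49.9% of all probe sets, and their median log2 difference was 0.18, beside a median of -0.000616 over all probe sets. Both values, and the medians that follow, include *Loxl2*, which was measured only because the study had listed it as changed. They are thus not a like comparison with all probe sets. Within the lower-numbered hearts the median of the 8 was 0.32, but within the higher-numbered hearts it was -0.042, with *Loxl1*, *Loxl2* and *Plod2* above 0 and the others below. The median fell to 0.14 at the lowest and rose to 0.25 at the highest when each heart was left out in turn. With 8 genes and 3 hearts per genotype, these counts describe the list and were not tested. All 8 genes had a mean log2 signal above the limit for dim signals.

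**Figure D1:**
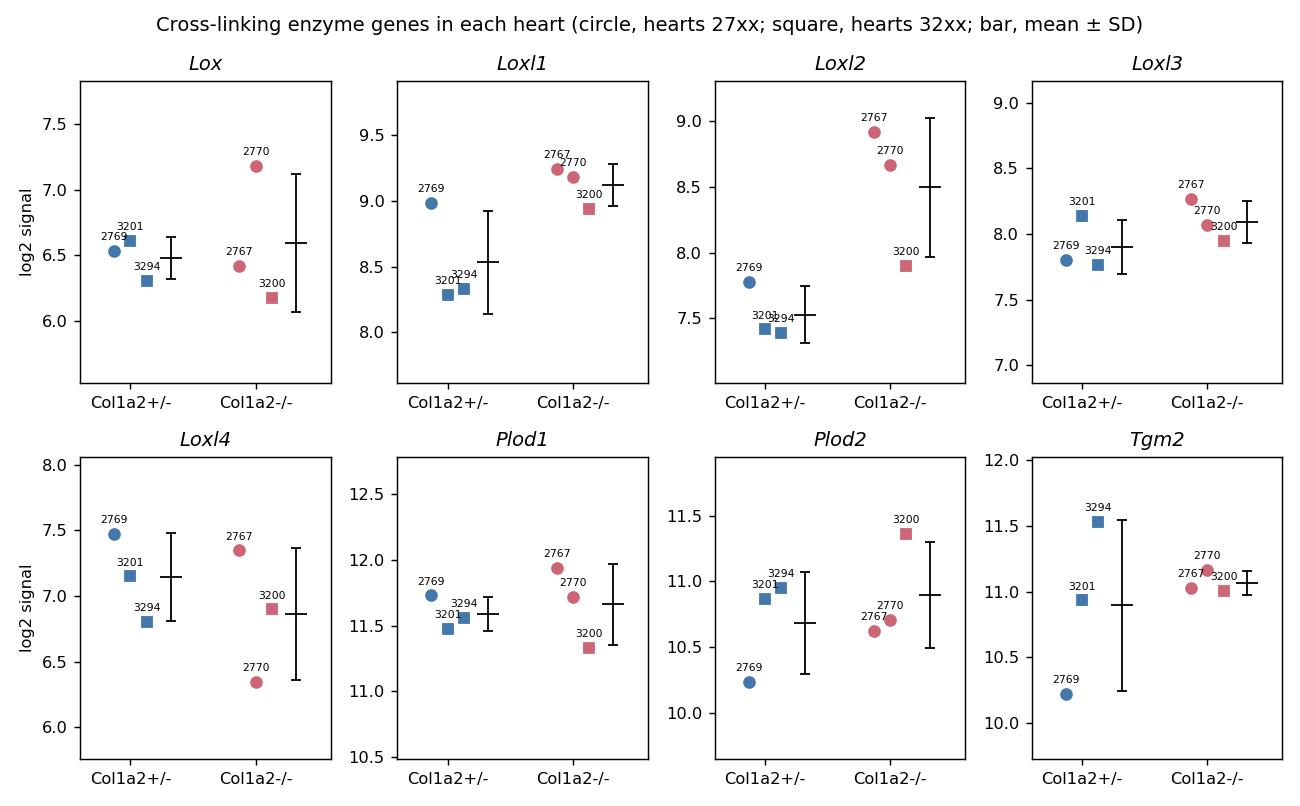
Log2 signal of the 8 measured cross-linking enzyme genes in each heart, with *Col1a2*+/- hearts in blue and *Col1a2*-/- hearts in red, numbered by animal. Circles are hearts 2767, 2769 and 2770, squares are hearts 3200, 3201 and 3294, bars are the mean ± SD of 3 hearts, and every panel spans the same log2 range. The genotypes are apart for *Loxl2* and overlap in the other 7 panels.

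*Loxl2*, whose product oxidizes lysines of collagens, among them basement membrane collagen IV, showed the largest difference of the 8. Its log2 signal was 7.78, 7.42 and 7.39 in *Col1a2*+/- hearts 2769, 3201 and 3294 and 8.92, 8.67 and 7.90 in *Col1a2*-/- hearts 2767, 2770 and 3200. All *Col1a2*-/- hearts lay above all controls, with the closest pair being heart 3200 and heart 2769. The genotypes were apart in this direction for 5.13% of all probe sets, in the other direction for 5.47% and in either for 10.6%. *Loxl2* had a mean of 8.50 ± 0.53 against 7.53 ± 0.22 (SD, n = 3 each) on the log2 scale, 1.96 times as high. The log2 difference of 0.97 had a 95% confidence interval of 0.37 to 1.57 (limma, p = 0.00529, adjusted p = 0.870, exact permutation p = 0.1, two-sided). No smaller exact p than 0.1 can be had from 3 hearts against 3. Within the lower-numbered hearts the difference was 1.02, and within the higher-numbered hearts it was 0.49, so that it had the same direction in both. Leaving out each heart moved it between 0.76 and 1.27, and the unadjusted p stayed under 0.05 in 6 of 6 such fits. The probe set was named only because the study had listed it as changed on these arrays. These refits of the same values are therefore not independent support.

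*Loxl1*, which encodes the lysyl oxidase known for the renewal of elastic fibres, was higher in *Col1a2*-/- hearts by a smaller amount. Its log2 signal was 9.24, 9.18 and 8.94 in hearts 2767, 2770 and 3200, all close together. The controls were spread more widely, with 8.98 in heart 2769 and with 8.28 and 8.33 in hearts 3201 and 3294. Heart 2769 therefore lay above *Col1a2*-/- heart 3200, and the genotypes overlapped. The mean was 9.12 ± 0.16 against 8.53 ± 0.39 (SD, n = 3 each) on the log2 scale, a difference of 0.59 and a 95% confidence interval of 0.09 to 1.08 (limma, p = 0.0248, adjusted p = 0.893, exact permutation p = 0.2). The difference was 0.23 within the lower-numbered hearts and 0.63 within the higher-numbered ones. The unadjusted call rested on single hearts of both genotypes. It was lost without control heart 3201 (log2 difference 0.46), without control heart 3294 (0.49), without heart 2767 (0.53) and without heart 2770 (0.56), and it was also lost in a test without moderation of the variances. Without control heart 2769 the difference was 0.81.

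*Lox*, the founding member of the family and the enzyme best known for cross-linking collagen I and collagen III, did not pass. Its log2 signal was 6.53, 6.61 and 6.30 in *Col1a2*+/- hearts 2769, 3201 and 3294. In *Col1a2*-/- hearts it was 6.42 in heart 2767, 7.18 in heart 2770 and 6.17 in heart 3200. The highest and the lowest of all 6 values were thus both from *Col1a2*-/- hearts, and the values of heart 2767 and of the controls lay between them. The log2 difference of 0.11 had a 95% confidence interval of -0.47 to 0.69 (limma, p = 0.685, adjusted p = 0.975, exact permutation p = 0.9). It was 0.27 within the lower-numbered hearts and -0.28 within the higher-numbered hearts, and without heart 2770 it was -0.19. The mean over all hearts, 6.54, was near the limit for dim signals.

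*Loxl3* and *Loxl4*, paralogs of *Loxl2* that share its scavenger receptor domains, did not pass either. *Loxl3* had a log2 signal of 7.80, 8.14 and 7.76 in control hearts 2769, 3201 and 3294 and of 8.26, 8.07 and 7.95 in *Col1a2*-/- hearts 2767, 2770 and 3200. Control heart 3201 lay above hearts 2770 and 3200. The log2 difference of 0.19 had an interval of -0.21 to 0.59 (limma, p = 0.306, adjusted p = 0.949, exact permutation p = 0.3). It was 0.37 within the lower-numbered hearts and near 0 within the higher-numbered ones. *Loxl4* was the 1 of the 8 with a lower mean in *Col1a2*-/- hearts, at 7.35, 6.35 and 6.90 in hearts 2767, 2770 and 3200 against 7.47, 7.15 and 6.80 in hearts 2769, 3201 and 3294. The log2 difference was -0.28 with all hearts and depended on single hearts, at -0.0205 without heart 2770, -0.52 without heart 2767, -0.45 without control heart 3294 and -0.11 without control heart 2769. The interval with all hearts ran from -0.90 to 0.34 (limma, p = 0.335, adjusted p = 0.955, exact permutation p = 0.5). Heart 2770 thus held the highest *Lox* and the lowest *Loxl4* of the 6 hearts.

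The lysyl hydroxylase genes did not pass. *Plod1*, whose enzyme hydroxylates lysines of the triple helix, stood at 11.73, 11.48 and 11.56 on the log2 scale in control hearts 2769, 3201 and 3294, and at 11.94, 11.72 and 11.33 in *Col1a2*-/- hearts 2767, 2770 and 3200. *Col1a2*-/- hearts were both the highest and the lowest, as for *Lox*. The log2 difference of 0.07 had a 95% confidence interval of -0.37 to 0.51 (limma, p = 0.710, adjusted p = 0.975, exact permutation p = 0.8). It was 0.10 within the lower-numbered and -0.19 within the higher-numbered hearts. *Plod2*, whose enzyme hydroxylates lysines of the telopeptides at the ends of collagen chains and is known for the cross-links of fibrotic collagen, had log2 signals of 10.24, 10.87 and 10.95 in hearts 2769, 3201 and 3294. Its log2 signals in *Col1a2*-/- hearts were 10.62, 10.71 and 11.36 in hearts 2767, 2770 and 3200. Within each series of animal numbers every *Col1a2*-/- heart lay above every control. The means differed by 0.43 in the lower-numbered series and by 0.45 in the higher-numbered series. Each series had a single heart of 1 genotype, and the share of all probe sets with this pattern was not counted. Over all 6 hearts the groups overlapped, and the log2 difference was 0.21 with an interval of -0.38 to 0.80 (limma, p = 0.435, adjusted p = 0.958, exact permutation p = 0.6). When the number series entered the fit as a block, *Plod2* had a difference of 0.44, which passed unadjusted and not after adjustment (limma, adjusted p = 0.963). It was -0.011 without heart 2769 and -0.019 without heart 3200. The labels do not say whether the series are litters.

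*Tgm2* varied more between the control hearts than any other of the 8 genes. Its log2 signal was 10.22, 10.93 and 11.53 in *Col1a2*+/- hearts 2769, 3201 and 3294, a range of 1.31. In *Col1a2*-/- hearts 2767, 2770 and 3200 it was 11.03, 11.17 and 11.00, a range of 0.16. All *Col1a2*-/- values lay inside the range of the controls. The log2 difference of 0.17 had a 95% confidence interval of -0.49 to 0.83 (limma, p = 0.577, adjusted p = 0.966, exact permutation p = 0.7). It was 0.49 without control heart 3294 (limma, adjusted p = 0.938) and -0.17 without control heart 2769, and it was 0.87 within the lower-numbered and -0.23 within the higher-numbered hearts. The highest *Tgm2* value was thus in the heart with the high atrial markers. With the mean of 5 atrial markers as a covariate, a fit added after the data were seen, the log2 difference of *Tgm2* was 0.20.

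**Figure D2:**
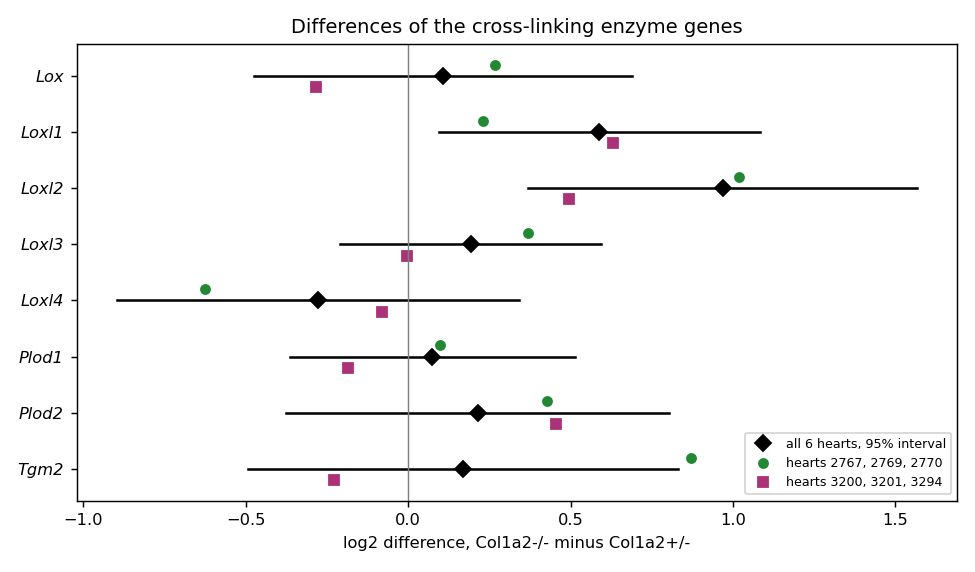
Log2 difference of each cross-linking enzyme gene, *Col1a2*-/- minus *Col1a2*+/-. Diamonds and lines are the limma estimate over 6 hearts with its 95% confidence interval, green circles the difference within hearts 2767, 2769 and 2770, and purple squares that within hearts 3200, 3201 and 3294. The intervals of *Loxl1* and *Loxl2* lie above 0, and the other 6 include 0.

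For all 8 genes the range between hearts of at least 1 genotype was larger than the genotype difference, also for *Loxl1* (range 0.70 in controls) and *Loxl2* (range 1.02 in *Col1a2*-/- hearts). Whether the differences of the members differed from each other was not tested. In their order over the 6 hearts the genes did not move as one set. Of 28 pairs of members, 16 had a Pearson's r above 0, and r ran from -0.77 for *Plod1* with *Plod2* to 0.89 for *Loxl1* with *Loxl2* (n = 6 hearts). Spearman's rho of these pairs was -0.89 and 0.89, and r was -0.75 and 0.98 without the 2 hearts farthest from the median. After subtraction of each genotype's mean, r was 0.70 for *Loxl1* with *Loxl2* and -0.89 for *Plod1* with *Plod2*. The most extreme values after subtraction, 0.98 for *Loxl2* with *Plod1* and -0.92 for *Loxl2* with *Plod2*, were not stable across measures. Without subtraction these pairs had an r of 0.70 and -0.24 and a rho of 0.49 and -0.37, and without the 2 farthest hearts r was -0.15 and 0.057. Among *Col1a2*-/- hearts the order of *Loxl2* and of *Plod1* from high to low was 2767, 2770 and 3200, and that of *Plod2* was the reverse. These are descriptions over 6 hearts that share the genotype split and the animal number series, and no p is given for them.

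The substrates of these enzymes were read on the same arrays. Among 13 substrate genes, limma gave 3 as higher and 1 as lower at the unadjusted limit and left 9 without a call. At this limit 2.67% of all probe sets were higher and 2.79% lower. The median log2 difference of the substrates was 0.30. The lower one was the deleted gene *Col1a2*. The higher ones were *Col1a1*, the partner chain in collagen I, at a log2 difference of 0.81, *Col3a1*, the second fibrillar collagen of the heart, at 0.64, and *Fbn1*, the microfibril gene, at 0.80. Like *Loxl2*, *Fbn1* was named only in the study's list of changed genes. It could enter this count and this median only because it was on that list. Without control heart 3201, without control heart 3294 or without heart 2767, *Col1a1* was the only substrate that was higher. The elastin gene *Eln* had a difference of 0.38 with an interval of -0.47 to 1.24, and the collagen IV gene *Col4a2* one of 0.49 with an interval of -0.01 to 1.00.

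*Loxl1* and *Loxl2* were set against these substrates and matrix partners from heart to heart, with mixed results. For *Loxl2*, Pearson's r over the 6 hearts was 0.92 with *Col3a1*, 0.93 with *Fbn1* and 0.95 with *Sparc*, and after subtraction of the genotype means it was 0.81, 0.88 and 0.85. For *Loxl1* the values were 0.90, 0.93 and 0.95, and after subtraction 0.76, 0.87 and 0.88. With *Col1a1*, r was 0.90 for *Loxl2* and 0.73 for *Loxl1*, and after subtraction 0.66 and 0.12. With *Postn* it was 0.56 and 0.63, and after subtraction -0.77 and -0.25. With *Eln* it was 0.70 and 0.58, and after subtraction 0.79 and 0.53. With *Col4a2* it was 0.93 and 0.90, and after subtraction 0.89 and 0.80. *Tgm2* ran instead with *Fn1*, the fibronectin gene, with an r of 0.93, and of 0.96 after subtraction. *Fn1* had a log2 signal of 9.21, 9.58 and 10.42 in control hearts 2769, 3201 and 3294, the same order as *Tgm2*, and of 10.12, 10.23 and 9.95 in *Col1a2*-/- hearts 2767, 2770 and 3200. Its difference was 0.36 with all hearts and did not pass, while without control heart 3294 it was 0.70 and passed unadjusted (limma, adjusted p = 0.926). These partner genes were picked after their values were seen, and *Fbn1* and *Loxl2* were named only through the study's list of changed genes. An r this high was not particular to them. Among 11552 named probe sets above the limit for dim signals, 129 had an r above 0.9 with *Loxl2* and 158 with *Loxl1*.

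**Figure D3:**
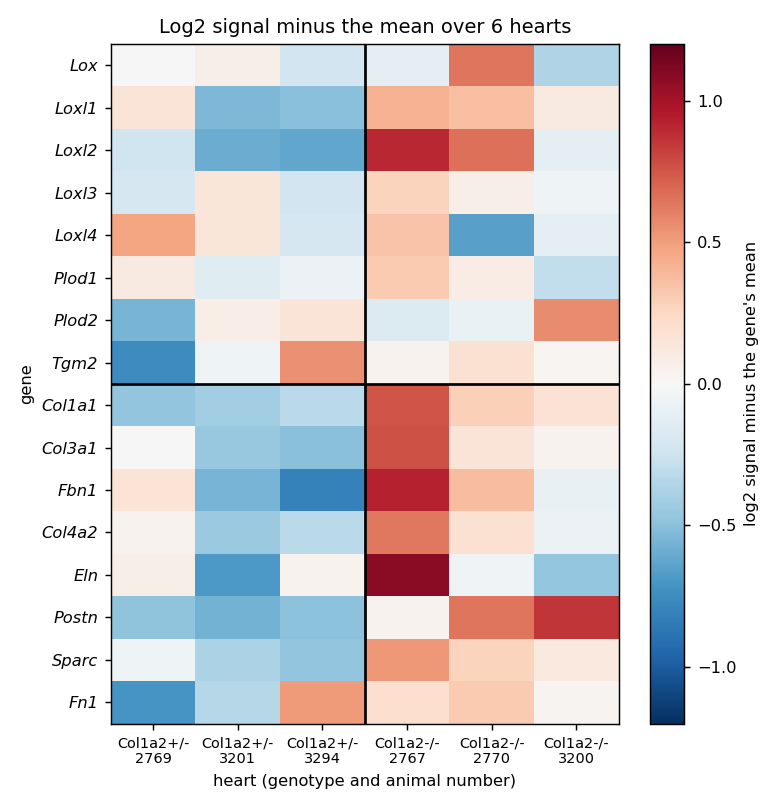
Log2 signal of each gene minus its own mean over 6 hearts, with *Col1a2*+/- hearts on the left, *Col1a2*-/- hearts on the right, the cross-linking enzymes above the horizontal line and substrates and matrix partners below it. *Loxl2*, *Col3a1* and *Sparc* are highest in heart 2767, while *Tgm2* and *Fn1* are highest in control heart 3294. The genes below the line were chosen after their values were seen.

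Genes that act with lysyl oxidases were mostly without a call. Of 13 such genes on the array, 2 were higher and 0 lower at the unadjusted limit, and 11 did not pass. Over all probe sets 2.67% were higher and 2.79% lower at this limit. Without control heart 3294 there were 3 higher, through *Fn1*. The higher ones were *Postn*, whose product periostin helps to bring the activating protease to lysyl oxidase, at a log2 difference of 1.03, and *Sparc*, a collagen chaperone outside the cell, at 0.60 (limma, adjusted p = 0.814 and 0.872). *Bmp1*, the protease that cleaves the lysyl oxidase propeptide, had a difference of 0.08, and its relative *Tll2* had 0.28. The copper pump gene *Atp7a*, which loads copper onto secreted enzymes, had a difference of 0.06, the copper chaperone gene *Atox1* had 0.09 and the copper importer gene *Slc31a1* had -0.02. The elastic fibre gene *Fbln5* had a difference of 0.05, and *Fmod*, whose product fibromodulin binds collagen and lysyl oxidase, had 0.43, with hearts of both genotypes overlapping.

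Of 7 measured partners of the lysyl hydroxylases and glycosyltransferases of hydroxylysine, 0 were higher and 0 were lower at the unadjusted limit. Their median log2 difference was 0.13, beside -0.000616 over all probe sets. At this limit 2.67% of all probe sets were higher and 2.79% lower. A list of 7 genes, here or of the prolyl hydroxylases below, can hold 0 calls at these shares. The collagen chaperone gene *Serpinh1* had a difference of 0.23, the cyclophilin B gene *Ppib* had 0.13, *Tmem38b*, a channel of the endoplasmic reticulum, had 0.20 and *P3h4*, part of a lysyl hydroxylase complex with *P3h3*, had -0.20. *Colgalt2*, a galactosyltransferase that acts on hydroxylysine, had 0.44 with an interval of -0.12 to 1.00, and it passed unadjusted with the series as a block (difference 0.57, adjusted p = 0.963 from limma) and without control heart 3201 (0.69). The prolyl hydroxylases hydroxylate proline instead and stabilize the triple helix. Of 7 measured in that list, which includes the cofactor gene *Crtap*, 0 passed, 6 had a lower mean in *Col1a2*-/- hearts, and the median was -0.10. Over all probe sets 49.9% had a higher mean in *Col1a2*-/- hearts. The largest difference was that of *P4ha2*, at -0.32 with an interval of -0.80 to 0.16, and *P4ha1*, the other main catalytic subunit, had -0.13. Without control heart 2769, *P4ha2* passed unadjusted at -0.51.

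The relatives of *Tgm2* and other copper amine oxidases also held no call at the unadjusted limit. Over all probe sets 5.45% passed at this limit, so lists this short can hold no call at that share. Of 7 other transglutaminase genes, 0 passed, and 5 had a mean under the limit for dim signals. *F13a1*, which encodes a subunit of coagulation factor XIII and is made by macrophages, had a log2 difference of 0.48 (limma, adjusted p = 0.920), which was -0.20 within the lower-numbered hearts and 1.02 within the higher-numbered ones. Without control heart 2769 its difference was 0.75 and passed unadjusted (limma, adjusted p = 0.712). Of 3 other copper amine oxidase genes, 0 passed, and *Aoc3*, known from adipocytes and smooth muscle, had a difference of -0.31 with an interval of -0.83 to 0.20. Its log2 signal was 9.03 in control heart 3294, the heart with the high *Ucp1* and *Adipoq*, and 8.34 and 8.37 in the other controls, within the 8.04 to 8.49 of *Col1a2*-/- hearts.

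**Figure D4:**
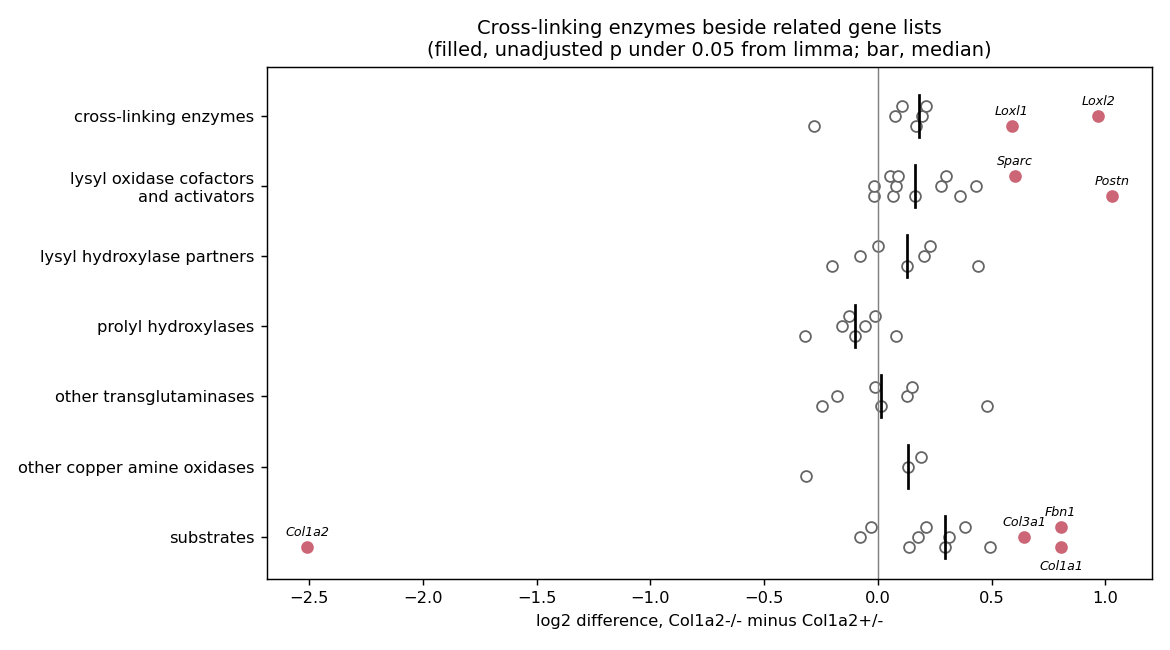
Log2 difference, *Col1a2*-/- minus *Col1a2*+/-, of each measured gene in the cross-linking list and in 6 related lists, 1 point per gene. Filled points have an unadjusted p under 0.05 from limma and carry their names, and vertical bars are the medians of each list. The filled points apart from *Col1a2* all lie to the right of 0, in the cross-linking enzymes, the lysyl oxidase cofactors and activators, and the substrates.

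These are bulk samples, in which more cells of a type and more RNA per cell cannot be told apart. Marker genes are counted at the unadjusted limit, which 2.67% of all probe sets passed as higher, and no marker passed after adjustment. Of 8 fibroblast markers, *Col3a1* and the microfibril gene *Mfap5* were higher and 6 did not pass. Their mean log2 signal was 12.41 to 12.58 in *Col1a2*+/- hearts and 12.52 to 12.78 in *Col1a2*-/- hearts, so that the groups overlapped. The fibroblast transcription factor gene *Tcf21* had a difference of -0.42 with an interval of -1.07 to 0.24, while *Dcn*, *Dpt* and *Lum* had differences of -0.04, 0.06 and 0.10. *Notch3*, of pericytes and smooth muscle, was higher at 0.53, 1 of 7 such markers, whose means were 9.79 to 10.13 in controls and 10.11 to 10.16 in *Col1a2*-/- hearts. Of these 7, 6 had a higher mean in *Col1a2*-/- hearts, while *Acta2* had a difference of -0.54 with an interval of -1.16 to 0.07. Endothelial markers had means of 12.54 to 12.71 and 12.70 to 12.89, and 0 of 5 passed. *C1qa* was the 1 of 5 macrophage markers that was higher, at 0.35, and these markers had means of 9.56 to 9.70 and 9.66 to 10.08. The part of these cell types in the differences of *Loxl1* and *Loxl2* was not tested. Atrial markers had means of 9.39 to 14.98 in controls and 10.75 to 11.69 in *Col1a2*-/- hearts, and of 9.39 and 10.10 in the 2 controls other than heart 3294. With their mean as a covariate, the log2 difference was 0.96 for *Loxl2* (limma, adjusted p = 0.770) and 0.58 for *Loxl1* (adjusted p = 0.787), and both still passed unadjusted.

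Genes with the most similar pattern were sought among 11552 probe sets with 1 symbol and a mean above the limit for dim signals, by Pearson's r over the 6 hearts. With so few hearts, high values were common: 129 probe sets had an r above 0.9 with *Loxl2*, 158 with *Loxl1*, 73 with *Lox* and 108 with *Tgm2*. Closest to *Loxl2* were *Atrn* (r = 0.994), *Grin2a* (r = 0.994) and *Dennd5a* (r = 0.992). *Atrn* had a log2 signal of 11.40, 11.33 and 11.27 in control hearts 2769, 3201 and 3294 and of 11.85, 11.78 and 11.50 in hearts 2767, 2770 and 3200. Closest to *Loxl1* were *Lyz2*, the lysozyme gene of macrophages and other myeloid cells (r = 0.997), *Mlkl* (r = 0.990) and *Senp5* (r = 0.988). *Lyz2* had a log2 signal of 12.86, 12.46 and 12.45 in controls 2769, 3201 and 3294 and of 12.82 to 13.06 in *Col1a2*-/- hearts, with the lowest in heart 3200, so that control heart 2769 lay above heart 3200, as it did for *Loxl1*. *Lox* was closest to *Morn3* (r = 0.985), *2410004B18Rik* (r = 0.98) and *Ctla4* (r = 0.97). *Tgm2* was closest to *Fam53a* (r = 0.99), *Mrpl11* (r = 0.99) and *Pkdrej* (r = 0.98).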

How the data were processed

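The authors deposited 1 log2 signal for each probe set and heart, already normalized and summarized. Their submission notes give Expression Console of Affymetrix as software, their methods Transcriptome Analysis Console, and neither a version nor the normalization is given in the sources used here, so that compression of differences by that step cannot be judged. Values were used as deposited. Of 28846 probe sets, 6640 controls were left out. *Col1a2*-/- and *Col1a2*+/- hearts, grouped by sample titles, were compared with lmFit and eBayes of limma 3.58.1 in R 4.3.3, with 4 residual degrees of freedom and Benjamini-Hochberg adjustment over 22206 probe sets. Counts of genes higher or lower are at an unadjusted p under 0.05, and adjusted results are named as such. Symbols came from the array annotation for 19572 probe sets and from the study's list of up- and downregulated genes for 81 more. Genes named only by that list, such as *Loxl2* and *Fbn1*, were thus reported as changed on these arrays beforehand. A gene was given by its brightest probe set, and each member had 1. Named genes are the members, *Col1a2*, genes of the related lists that passed or had the smallest p, the nearest patterns of 4 members, and markers. The members and lists were chosen with earlier results of these data known. Outside this rule, *Bmp1*, *Tll2*, *Fmod*, *Atp7a*, *Atox1*, *Slc31a1*, *Fbln5*, *Ppib*, *Eln*, *Col4a2* and *Fn1* were named after their values were seen. Precision is limited by the 6 arrays. The exact permutation test was two-sided over the 6 hearts. Alternatives were quantile normalization, median centring, dim probe sets left out, eBayes with trend and robust settings, array weights, a test per probe set without moderation, the number series as a block, 1 probe set per gene, each heart left out and, added after the data were seen, an atrial marker covariate. Protein sequences were not used here. Code was tested on simulated data. Figures were drawn with matplotlib 3.10.9.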

Additional observations from a re-analysis of the deposited data

How the results depend on the processing

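*Loxl2* kept its direction and an unadjusted p under 0.05 in 15 of 15 alternatives (p from 0.000290 to 0.0433), and *Loxl1* kept its direction in 15 and passed in 10. *Loxl2* was measured only because the study had listed it as changed on these same arrays. Its 15 are thus not independent support and not a like count beside those of *Loxl1*. None of the 8 genes passed an adjusted p in any alternative. Without moderation of the variances, 1 of the 8 was higher, and the adjusted p of *Col1a2* was 0.546 at a difference of -2.51. Leaving out each heart gave 1 to 2 higher, a median of 0.14 to 0.25, and a difference of -2.60 to -2.39 for *Col1a2*. Signs turned for genes without a call. With the series as a block, *Lox* was at -0.0094 and *Plod1* at -0.043. Leaving out each heart gave -0.19 (without heart 2770) to 0.32 for *Lox*, -0.064 (without heart 2767) to 0.24 for *Plod1*, -0.019 (without heart 3200, and -0.011 without heart 2769) to 0.35 for *Plod2* and -0.17 (without heart 2769) to 0.49 for *Tgm2*. Of the related lists, leaving out each heart gave 2 to 3 higher lysyl oxidase cofactors and activators (*Fn1* added without heart 3294), 0 to 1 higher lysyl hydroxylase partners (*Colgalt2*), and 1 with the series as a block, 0 to 1 lower prolyl hydroxylases (*P4ha2*), 0 to 1 higher (*F13a1*) and 0 to 1 lower (*Tgm5*) transglutaminases, and 1 to 4 higher substrates. No paired analysis was possible because each animal number occurs once. Averaging several probe sets of a gene was not run, since each member had 1.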
